A study of Homo sapiens with 9 samples.

Results

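The 41 genes described here make ribosomes in the nucleolus. They were chosen by symbol as genes of the box C/D and box H/ACA small nucleolar ribonucleoproteins, of RNA polymerase I transcription, of the nucleolar scaffold and of small and large subunit processing. Earlier results of these data were known when the genes were chosen, so their counts are a description and no independent test. All 41 were found among the 60675 genes of the count table, and all passed the filter on low counts that left 18356 genes. Levels were measured by RNA-seq in 9 libraries of SW1783, a human astrocytoma cell line. Cells were exposed for 24 h to DMSO as vehicle (3 libraries) or to a 70% ethanol extract of Poria Cocos, a fungus, or of Atractylodis Rhizoma, a plant rhizome. Each extract was given at 20, 100 and 500 µg/mL, with 1 library per extract and dose. The vehicle is given as 0.1% DMSO in the sample labels and as 2% in the series' design text, and no percentage is given for the treated cells. The comparisons ask whether transcripts of the ribosome assembly line changed with the dose of either extract, whether the extracts differed, and whether treated cells differed from vehicle cells.

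Ribosome assembly starts in the nucleolus, where RNA polymerase I transcribes the long precursor of the 18S, 5.8S and 28S ribosomal RNAs. Small nucleolar ribonucleoproteins modify and fold this precursor, and large sets of processing factors cut it and build the small and large subunits around it. The genes are commonly transcribed together in growing and dividing cells, and MYC is a well known activator of many of them through E-box elements in their promoters.

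Library totals ran from 40269708 to 48905602 counts, and the vehicle means of the 41 genes from 21.8 CPM for GAR1 to 1492 CPM for NPM1. The number of libraries limited the precision, and the part of counting error in the scatter was not measured. No treated condition had a replicate, and the labels leave unsaid if the libraries were separate cultures. The p-values therefore cover the scatter among these libraries alone, and that scatter may be technical. All titles name the same batch, BatchD, but the vehicle and treated libraries carry sample codes of different series. The labels do not say what these codes mark. A difference in handling between the series, if there was any, cannot be told apart from an effect of the extracts. Values are CPM, each gene's share of its library's counts after trimmed-mean (TMM) scaling, and vehicle levels are means ± SD (n = 3). Of 7 astrocyte markers, GFAP, S100B, AQP4, ALDH1L1 and SLC1A2 lay under 1 CPM in every library, while the mesenchymal markers together reached 20628 to 21168 CPM in vehicle. The astrocyte list summed to 105 to 107 CPM in vehicle and 84.1 to 100.2 CPM in treated libraries, but its expressed members went opposite ways: SOX9 was at 83.2 to 84.9 CPM in vehicle and 58.6 to 74.7 CPM in treated libraries, and SLC1A3 at a mean of 21.4 CPM in vehicle and 25.0 to 27.1 CPM in treated libraries. The mesenchymal list summed to 18154 to 19419 CPM in treated libraries. In treated against vehicle libraries 3 of its 6 genes fell and 0 rose, where 13.3% of all genes tested fell and 12% rose. In the same comparison 1 astrocyte marker fell and 1 rose, 1 myeloid marker fell, and 0 neuronal and 0 epithelial markers passed. The neuronal list summed to 149 to 150.3 CPM in vehicle and 135 to 160 CPM in treated libraries, the myeloid list to 175 to 183 and 133 to 164 CPM, and the epithelial list to 242 to 249 and 129.7 to 232 CPM. Most of each sum came from 1 gene, with vehicle means of 116 CPM for TUBB3, 166 CPM for CD68 and 223 CPM for KRT18. RBFOX3, AIF1, ITGAM, TYROBP, EPCAM, CDH1 and KRT19 lay under 1 CPM in every library. No marker was at 0 in all 9 libraries, and the part of these shifts in the results below was not tested.

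Most of the 41 genes were lower in the cells treated with either extract. All 6 treated libraries lay below all 3 vehicle libraries for 19 genes, against 13.7% of all genes tested, and above them for 2 genes, against 12.4%. In treated against vehicle libraries, 23 genes fell and 1 rose by the edgeR quasi-likelihood test at an adjusted p under 0.05, where 13.3% of all genes tested fell and 12% rose. The median log2 change was -0.15 over the 41 genes and 0.01 over all genes, so the falls were common but modest. With library totals in place of TMM scaling, 14 of the 41 fell and 4 rose, while 7.58% of all genes fell and 21.7% rose. In bulk RNA, fewer cells of a kind and less RNA per cell cannot be told apart.

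**Figure D1:**
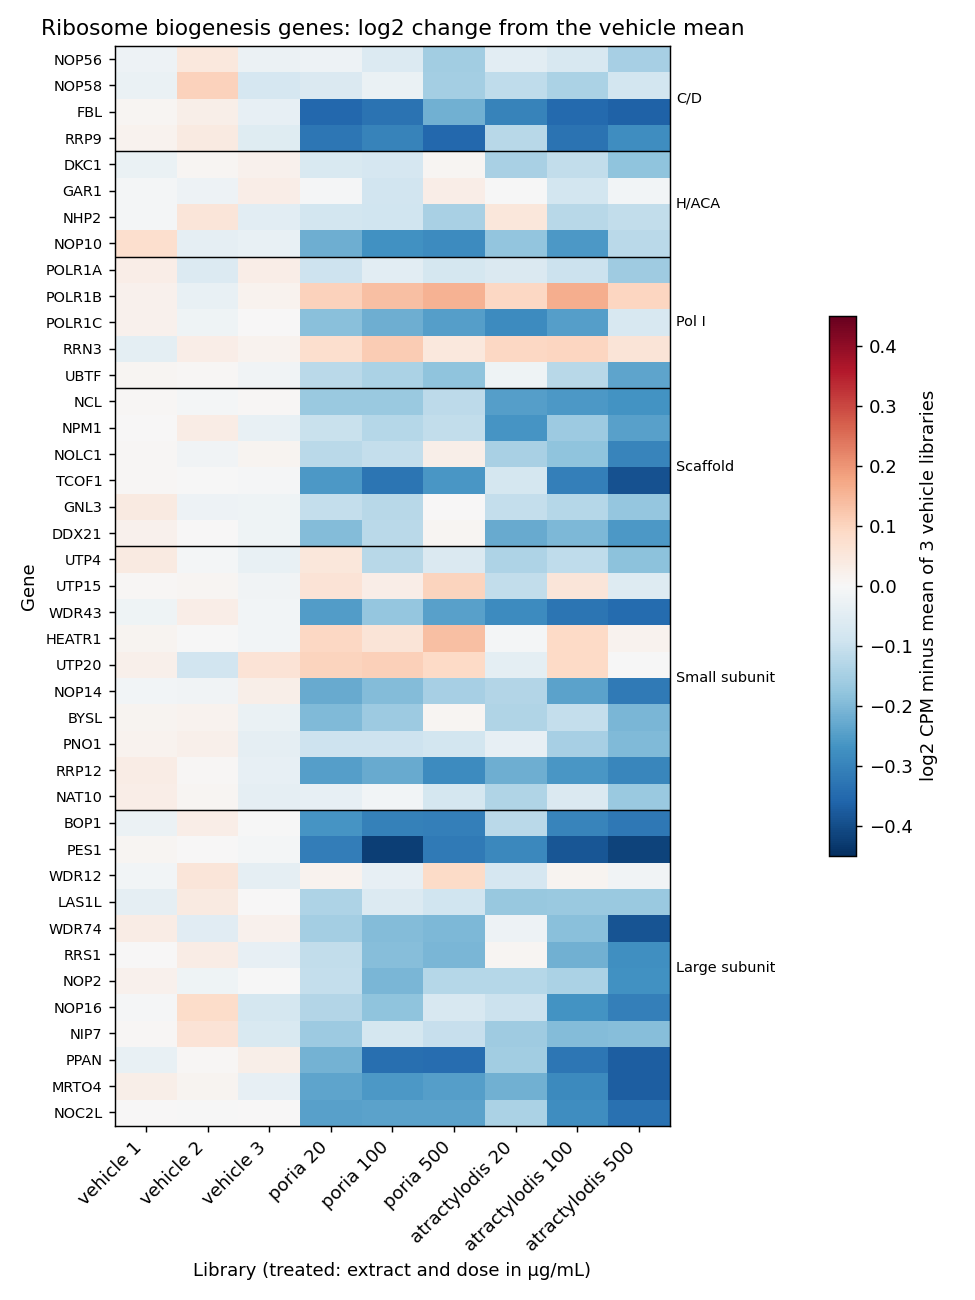
Each row is a gene, grouped by role, and each column a library. The colour gives log2 CPM minus the mean of the 3 vehicle libraries, with blue for lower and red for higher; most rows are blue in all 6 treated libraries, and POLR1B and RRN3 are red in all 6.

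The shift was present in every treated library. The median log2 difference of the 41 genes from the vehicle mean was -0.12, -0.13 and -0.12 with 20, 100 and 500 µg/mL of Poria extract. With Atractylodis extract it was -0.13, -0.17 and -0.20 at the same doses. The vehicle libraries had medians between -0.01 and 0.01, as had all genes together in every library. Counted gene by gene, between 28 and 35 of the 41 lay below the vehicle range in a treated library, where 33.6% to 36.7% of all genes did. The Atractylodis libraries at 100 and 500 µg/mL had the most, with 35 each, and the Poria library at 500 µg/mL had the fewest.

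**Figure D2:**
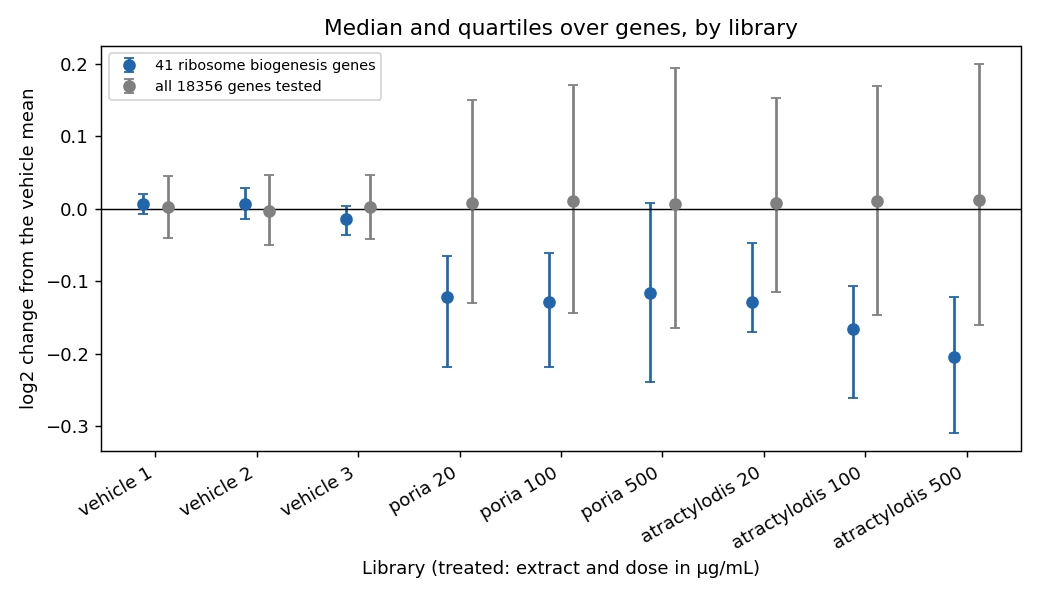
Points are the median log2 change from the vehicle mean in each library, over the 41 genes (blue) and over all 18356 genes tested (grey), and bars span the quartiles over genes. The blue medians lie between -0.20 and -0.12 in the 6 treated libraries, and the grey medians stay near 0.

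Dose trends were fitted as 1 slope per extract, in log2 per step from vehicle to 20, 100 and 500 µg/mL, with ± SE. For Poria, 17 genes fell along the trend and 0 rose, where 11.6% of all genes fell and 9.16% rose. For Atractylodis, 25 fell and 0 rose, where 10.5% of all genes fell and 8.49% rose. DESeq2 gave 18 and 28 falls and 0 rises, where 11.8% and 11.2% of all genes fell and 8.0% and 7.52% rose. In the edgeR test 21 and 31 genes had an unadjusted p under 0.05 in either direction, where 33.4% and 31.8% of all genes had one. The median slope was -0.04 for Poria and -0.07 for Atractylodis over the 41 genes, and 0.00 over all genes for both. Without the Poria library at 500 µg/mL the Poria median was -0.06. Both trends share the 3 vehicle libraries, so their likeness is no independent evidence. By role, the large subunit factors fell most often, with 8 of 12 for Poria and 11 of 12 for Atractylodis. Of the 6 scaffold genes, 5 fell for Atractylodis and 1 for Poria, and no gene among them passed for a difference of the slopes.

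**Figure D3:**
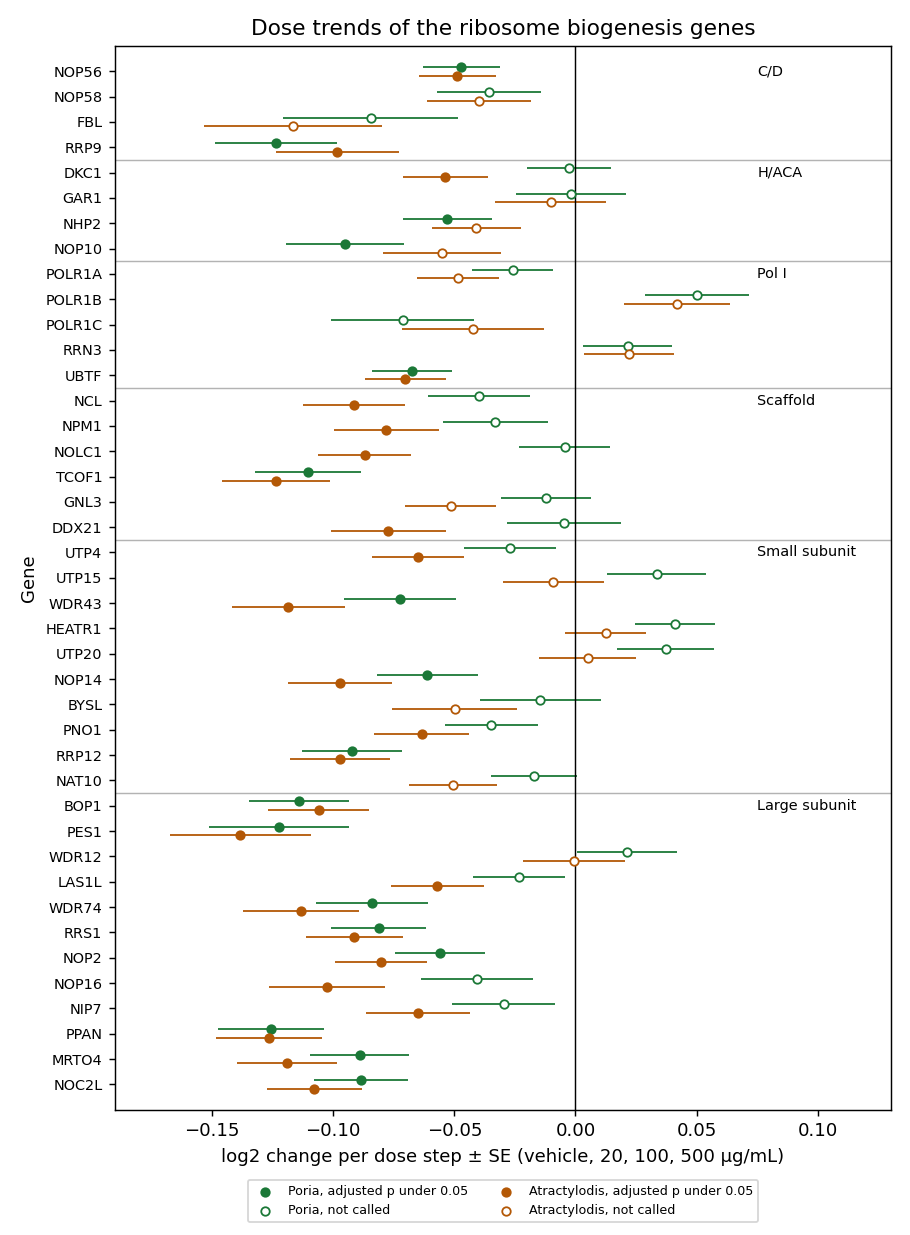
Slopes in log2 per dose step ± SE from 9 libraries are drawn for each gene, green for Poria and brown for Atractylodis. Filled points have an adjusted p under 0.05; all of them lie to the left of 0, and most of the large subunit genes are filled.

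The large subunit group holds the factors that cut the 5.8S and 28S part of the precursor and assemble the 60S particle. PES1 (ENSG00000100029, chromosome 22, 30576625 to 30607083, minus strand), the pescadillo scaffold of the PES1, BOP1 and WDR12 complex, showed the largest fall of the 41 genes. Its level was 169.7, 169 and 167 CPM in the vehicle libraries, 136, 126 and 135 CPM with rising Poria doses and 138, 129 and 126 CPM with rising Atractylodis doses. Every treated library lay below the vehicle range, with changes from the vehicle mean between -18.3% and -25.5%. The treated libraries were lower by a log2 change of -0.36 ± 0.04 (adjusted p = 6.5e-06), and the slopes were -0.12 ± 0.03 for Poria (adjusted p = 0.012) and -0.14 ± 0.03 for Atractylodis (adjusted p = 0.0078).

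BOP1 (ENSG00000261236, chromosome 8, 144262102 to 144291370, minus strand), the partner of PES1, was at 88.5, 91.9 and 90.0 CPM in vehicle, 75.0, 73.0 and 72.8 CPM with Poria and 82.9, 73.3 and 72.2 CPM with Atractylodis. The library with 20 µg/mL of Atractylodis was the highest of the 6 but still below vehicle. The slopes were -0.11 ± 0.02 (adjusted p = 0.0011) and -0.11 ± 0.02 (adjusted p = 0.0025). WDR12, the WD40 subunit of the same complex, was at 34.4, 36.1 and 33.8 CPM in vehicle, 35.1, 33.9 and 36.9 CPM with Poria and 33.0, 35.0 and 34.4 CPM with Atractylodis. These levels overlapped, and its slopes were 0.02 ± 0.02 (adjusted p = 0.52) and -0.00 ± 0.02 (adjusted p = 0.99). Of the 3 subunits of the complex, PES1 and BOP1 fell and WDR12 did not pass the test.

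PPAN (ENSG00000130810, chromosome 19, 10106289 to 10111634, plus strand), which acts in 60S assembly, had the steepest Poria slope of the group. It was at 36.3, 37.3 and 37.9 CPM in vehicle, 32.1, 29.4 and 29.3 CPM with Poria and 33.4, 29.7 and 28.7 CPM with Atractylodis, with no overlap between treated and vehicle libraries. The slopes were -0.13 ± 0.02 (adjusted p = 0.00079) and -0.13 ± 0.02 (adjusted p = 0.0012). Reads shared with the readthrough gene PPAN-P2RY11 could affect it, although that gene held 0.684% of their summed counts in vehicle. MRTO4 (ENSG00000053372, chromosome 1, 19251539 to 19260128, plus strand), a placeholder on the pre-60S particle for the ribosomal stalk, was at 84.1, 83.3 and 80.5 CPM in vehicle, 70.1, 69.0 and 69.6 CPM with Poria and 71.0, 67.7 and 63.8 CPM with Atractylodis. The Poria libraries were alike at the 3 doses, whereas the Atractylodis libraries went down from dose to dose. Its slopes were -0.09 ± 0.02 (adjusted p = 0.0054) and -0.12 ± 0.02 (adjusted p = 0.0012).

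Of the other 7 large subunit factors, NOC2L fell along both trends, from 212 ± 0.391 CPM in vehicle to 168 to 192 CPM in the treated libraries. WDR74, RRS1 and NOP2, the last a methyltransferase of 28S ribosomal RNA, fell along both trends. NOP16, NIP7 and LAS1L, the nuclease that cuts the spacer between 5.8S and 28S, passed for Atractylodis and not for Poria, and the difference between the extracts passed for none of them (adjusted p = 0.3, 0.56 and 0.53). RRS1 and WDR74 were still at the vehicle level with 20 µg/mL of Atractylodis, at 54.6 CPM against 54.3, 55.6 and 52.9 CPM and 29.3 CPM against 30.4, 28.7 and 30.1 CPM.

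Among the small subunit factors, 3 of 10 fell for Poria and 5 of 10 for Atractylodis. WDR43 (ENSG00000163811, chromosome 2, 28894643 to 28948222, plus strand), a subunit of the complex that binds the nascent precursor first, was at 87.8, 90.7 and 88.3 CPM in vehicle, 74.7, 78.9 and 75.1 CPM with Poria and 73.2, 70.9 and 70.0 CPM with Atractylodis. The lowest vehicle library exceeded the highest treated library. Its slopes were -0.07 ± 0.02 (adjusted p = 0.035) and -0.12 ± 0.02 (adjusted p = 0.0029). RRP12 (ENSG00000052749, chromosome 10, 97356358 to 97426076, minus strand), which acts in the maturation and export of pre-ribosomes, was at 101, 99.4 and 96.6 CPM in vehicle, 83.5, 84.7 and 81.4 CPM with Poria and 85.1, 82.6 and 80.9 CPM with Atractylodis. All 6 treated libraries fell into a narrow band under the vehicle libraries, with slopes of -0.09 ± 0.02 (adjusted p = 0.0046) and -0.10 ± 0.02 (adjusted p = 0.0043).

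NOP14 (ENSG00000087269, chromosome 4, 2937933 to 2963385, minus strand), needed for 18S processing, was at 65.4, 65.3 and 67.2 CPM in vehicle, 56.3, 57.6 and 59.4 CPM with Poria and 60.2, 55.8 and 52.9 CPM with Atractylodis. Its lowest Poria library was the one at 20 µg/mL and its lowest Atractylodis library the one at 500 µg/mL. The slopes were -0.06 ± 0.02 (adjusted p = 0.045) and -0.10 ± 0.02 (adjusted p = 0.005). UTP4 and PNO1, the latter a pre-40S factor, fell along the Atractylodis trend (adjusted p = 0.024 and 0.03) but did not pass for Poria. BYSL and NAT10, the enzyme that acetylates 18S ribosomal RNA, passed in neither trend.

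HEATR1, UTP15 and UTP20 were the small subunit genes with Poria slopes above 0. HEATR1, a partner of UTP4, UTP15 and WDR43 in the same early complex, was at 116, 115 and 114 CPM in vehicle, 122, 119.6 and 126 CPM with Poria and 114, 122 and 116 CPM with Atractylodis. Its Poria libraries all lay above vehicle, with a slope of 0.04 ± 0.02 that missed the threshold (adjusted p = 0.086), and its Atractylodis libraries overlapped vehicle. UTP20, a very large scaffold of the processome, had slopes of 0.04 ± 0.02 (adjusted p = 0.2) and 0.00 ± 0.02 (adjusted p = 0.9), and UTP15 had 0.03 ± 0.02 (adjusted p = 0.27) and -0.01 ± 0.02 (adjusted p = 0.81). With library totals in place of TMM scaling, HEATR1, UTP15 and UTP20 passed as rising with Poria, where 17.3% of all genes rose.

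Of the 4 box C/D proteins, which carry the enzyme that methylates ribose in ribosomal RNA, 2 fell along each trend. RRP9 (ENSG00000114767, chromosome 3, 51933430 to 51941941, minus strand), a protein of the U3 particle that guides the first cuts of the precursor, was at 51.0, 51.9 and 48.6 CPM in vehicle, 40.3, 40.9 and 39.5 CPM with Poria and 46.3, 40.1 and 41.6 CPM with Atractylodis. Treated and vehicle libraries did not overlap, and the library with 20 µg/mL of Atractylodis lay between the others and vehicle. Its slopes were -0.12 ± 0.03 (adjusted p = 0.0027) and -0.10 ± 0.03 (adjusted p = 0.013).

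FBL (ENSG00000105202, chromosome 19, 39834458 to 39846414, minus strand), the methyltransferase fibrillarin, was at 147, 149 and 143 CPM in vehicle, 115, 116 and 126 CPM with Poria and 119, 115 and 114 CPM with Atractylodis. It was near its lowest level at the lowest dose of either extract and, with Poria, less far below vehicle at 500 µg/mL. Neither dose trend passed, with slopes of -0.08 ± 0.04 (adjusted p = 0.14) and -0.12 ± 0.04 (adjusted p = 0.056). The treated libraries as a whole were lower by a log2 change of -0.32 ± 0.04 (adjusted p = 1.8e-05). NOP56 (ENSG00000101361, chromosome 20, 2652145 to 2658393, plus strand), a core scaffold of the particles, was at 162, 169.8 and 161 CPM in vehicle, 161, 157 and 147 CPM with Poria and 159, 156 and 148 CPM with Atractylodis. Here the 500 µg/mL libraries were the lowest for both extracts and 1 treated library overlapped vehicle. Its slopes were -0.05 ± 0.02 (adjusted p = 0.045) and -0.05 ± 0.02 (adjusted p = 0.041), and its paralog NOP58 passed in neither trend. Both NOP56 calls were lost with GC and length offsets, with library totals, with no filter on low counts and without any 1 of the 3 vehicle libraries. They were also lost without the Atractylodis library at 100 or 500 µg/mL or the Poria library at 100 µg/mL, and the Poria call without the Poria library at 500 µg/mL.

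The 4 box H/ACA proteins form the particle that turns uridine into pseudouridine. NOP10 (ENSG00000182117, chromosome 15, 34341713 to 34343177, minus strand), its smallest subunit, was at 101, 92.8 and 93.2 CPM in vehicle, 82.1, 79.0 and 78.5 CPM with Poria and 84.5, 79.7 and 87.7 CPM with Atractylodis. All treated libraries were lower than vehicle, with a slope of -0.10 ± 0.02 for Poria (adjusted p = 0.012) and -0.06 ± 0.02 for Atractylodis (adjusted p = 0.13). DKC1 (ENSG00000130826, chromosome X, 154762742 to 154777689, plus strand), the pseudouridine synthase dyskerin, was at 150.2, 154 and 155 CPM in vehicle, 146, 145 and 154 CPM with Poria and 139, 142 and 135 CPM with Atractylodis. Its Poria library at 500 µg/mL lay within the vehicle range and its Atractylodis libraries all lay below it, with slopes of -0.00 ± 0.02 (adjusted p = 0.94) and -0.05 ± 0.02 (adjusted p = 0.04).

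NHP2 (ENSG00000145912, chromosome 5, 178149460 to 178153967, minus strand), another core subunit, was at 106, 111 and 103 CPM in vehicle, 101, 100.5 and 96.5 CPM with Poria and 111, 97.9 and 98.8 CPM with Atractylodis. The library with 20 µg/mL of Atractylodis lay inside the vehicle range and the other 5 below it. The slopes were -0.05 ± 0.02 (adjusted p = 0.048) and -0.04 ± 0.02 (adjusted p = 0.13). GAR1, the subunit that joins last, stayed at 21.7, 21.4 and 22.3 CPM in vehicle, 21.7, 20.6 and 22.3 CPM with Poria and 21.8, 20.6 and 21.6 CPM with Atractylodis, with slopes of -0.00 ± 0.02 and -0.01 ± 0.02.

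The RNA polymerase I genes moved in both directions. UBTF (ENSG00000108312, chromosome 17, 44205033 to 44221626, minus strand), the HMG-box factor that keeps ribosomal DNA repeats open, was at 104, 104 and 102 CPM in vehicle, 94.8, 93.5 and 91.1 CPM with Poria and 102, 94.6 and 87.5 CPM with Atractylodis. Levels went down from dose to dose with both extracts, and the library with 20 µg/mL of Atractylodis lay just under vehicle. The slopes were -0.07 ± 0.02 (adjusted p = 0.0078) and -0.07 ± 0.02 (adjusted p = 0.0079). POLR1C (ENSG00000171453, chromosome 6, 43509702 to 43562419, plus strand), a subunit shared with RNA polymerase III, was at 29.9, 29.1 and 29.6 CPM in vehicle, 25.9, 25.4 and 24.9 CPM with Poria and 24.3, 24.9 and 28.1 CPM with Atractylodis. All 6 treated libraries were lower than vehicle (log2 change -0.21 ± 0.05, adjusted p = 0.0043), but the level came back towards vehicle with 500 µg/mL of Atractylodis and neither trend passed (adjusted p = 0.099 and 0.35).

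POLR1A (ENSG00000068654, chromosome 2, 86020216 to 86106155, minus strand), the largest catalytic subunit, was at 114, 107 and 114 CPM in vehicle, 105, 108 and 106 CPM with Poria and 107, 105 and 100.1 CPM with Atractylodis. The groups overlapped in 1 treated library, and the Atractylodis slope of -0.05 ± 0.02 just missed the threshold (adjusted p = 0.052). POLR1B, the other large catalytic subunit, went the opposite way, with 24.7, 23.7 and 24.6 CPM in vehicle, 26.1, 26.7 and 27.1 CPM with Poria and 26.0, 27.3 and 26.0 CPM with Atractylodis. All treated libraries were above vehicle, with a log2 change of 0.13 ± 0.04 (adjusted p = 0.039), the only rise called among the 41 genes in that comparison. That call was lost with GC and length offsets, with no filter on low counts and without any 1 of the 3 vehicle libraries, of the Poria libraries at 20 and 100 µg/mL or of the Atractylodis library at 100 µg/mL. RRN3, which recruits the polymerase to the promoter, was also above vehicle in all 6 treated libraries but did not pass (log2 change 0.08 ± 0.03, adjusted p = 0.1), and 3 pseudogenes of it held 9.33% of the summed counts, so its level is uncertain.

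The nucleolar scaffold genes include the most abundant transcripts of the 41. TCOF1 (ENSG00000070814, chromosome 5, 150357629 to 150400308, plus strand), the treacle protein that tethers RNA polymerase I factors, was at 137, 136 and 136 CPM in vehicle, 114, 109 and 114 CPM with Poria and 129, 110.2 and 104 CPM with Atractylodis. It was below vehicle in every treated library, least with 20 µg/mL of Atractylodis and most with 500 µg/mL. The slopes were -0.11 ± 0.02 (adjusted p = 0.0023) and -0.12 ± 0.02 (adjusted p = 0.0017). NCL (ENSG00000115053, chromosome 2, 231453531 to 231483641, minus strand), nucleolin, was at 599.6, 594 and 599.7 CPM in vehicle, 533, 533 and 552 CPM with Poria and 504, 499 and 497 CPM with Atractylodis. Its 3 Atractylodis libraries were all below its 3 Poria libraries, and these all below vehicle, with slopes of -0.04 ± 0.02 (adjusted p = 0.2) and -0.09 ± 0.02 (adjusted p = 0.0068) and a difference between the slopes of 0.05 ± 0.02 (adjusted p = 0.35).

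NOLC1 (ENSG00000166197, chromosome 10, 102152176 to 102163871, plus strand), the shuttling chaperone of the small nucleolar particles, was at 168, 166 and 169 CPM in vehicle, 154, 155 and 171 CPM with Poria and 151, 147 and 136 CPM with Atractylodis. At 500 µg/mL the Poria library was above the vehicle range and the Atractylodis library was the lowest of all 9. The slopes were -0.00 ± 0.02 (adjusted p = 0.9) and -0.09 ± 0.02 (adjusted p = 0.005), and their difference of 0.08 ± 0.02, the largest of the 41 genes, missed the threshold in the edgeR test (adjusted p = 0.063) and passed in DESeq2 (adjusted p = 0.012). The helicase gene DDX21 was at 297, 293 and 288 CPM in vehicle, 255, 269 and 295 CPM with Poria and 250.1, 254 and 245 CPM with Atractylodis, so that it too was back at the vehicle level with 500 µg/mL of Poria alone. The same held for GNL3, the GTPase nucleostemin, at 114 CPM against 118, 113 and 113 CPM.

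NPM1, nucleophosmin, a histone and ribosome chaperone, was the most abundant of the 41 per kilobase of transcript, at 848 CPM per kilobase in vehicle, ahead of NOP10 at 172 and NCL at 148 CPM per kilobase. Its level was 1491, 1525 and 1458 CPM in vehicle, 1391, 1363 and 1382 CPM with Poria and 1239.6, 1330.3 and 1259.8 CPM with Atractylodis. As for NCL, the Poria libraries lay between the vehicle and the Atractylodis libraries, and the slopes were -0.03 ± 0.02 (adjusted p = 0.31) and -0.08 ± 0.02 (adjusted p = 0.018). The 45 named pseudogenes of NPM1 held 0.753% of the summed counts, so a small part of its reads could be misassigned.

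**Figure D4:**
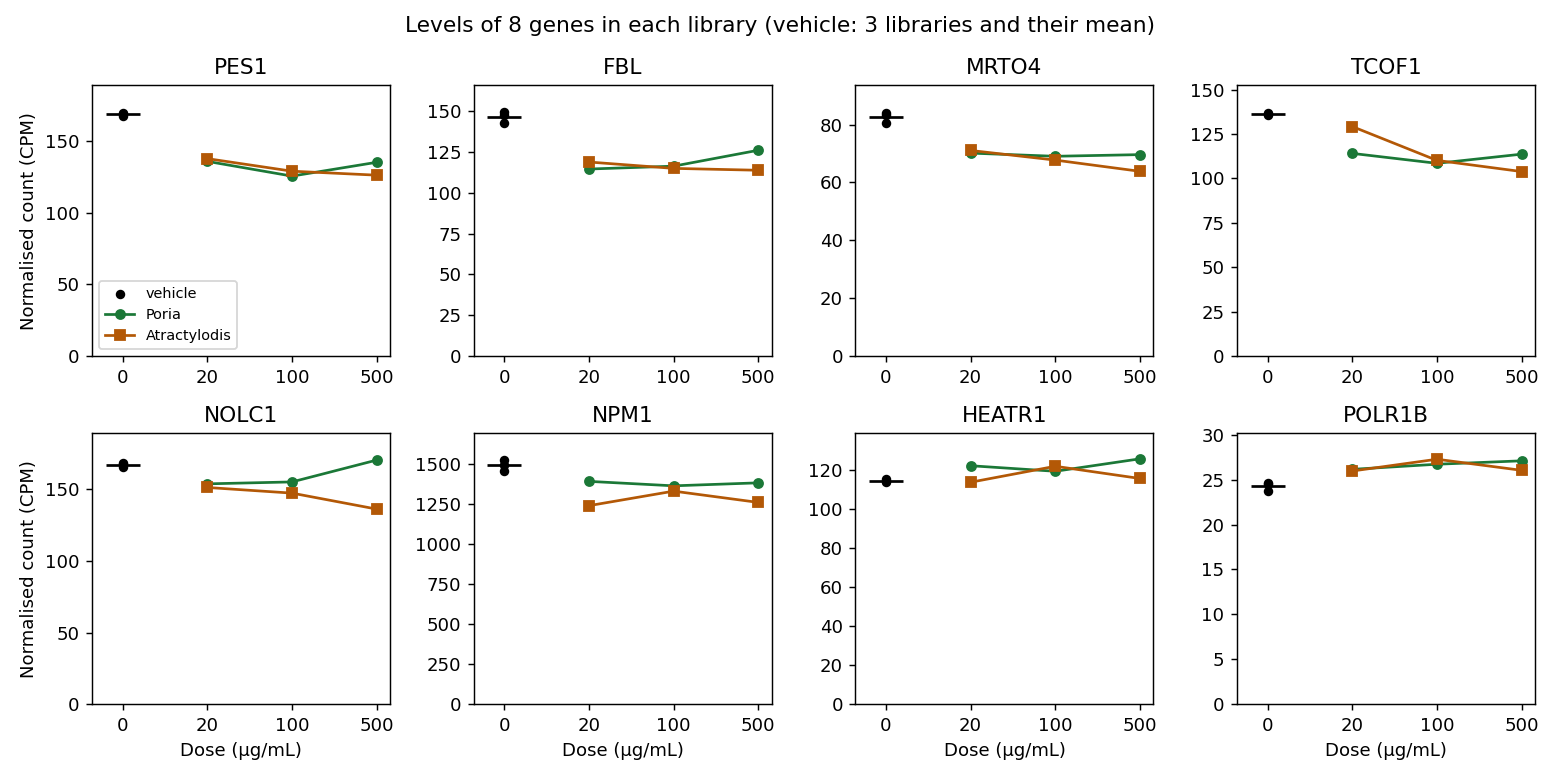
Normalised counts (CPM, axis from 0) of 8 genes are plotted against dose, with black points and a bar for the 3 vehicle libraries and their mean, green circles for Poria and brown squares for Atractylodis. PES1, FBL, MRTO4 and TCOF1 step down at 20 µg/mL or by 100 µg/mL, NOLC1 separates by extract at 500 µg/mL, and POLR1B lies above vehicle throughout.

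At the lowest dose the median over the 41 genes was already -0.12 with Poria and -0.13 with Atractylodis. When the vehicle level was taken out of the slope, so that only the 3 treated doses of an extract set it, 0 of the 41 genes fell and 1 rose with Poria, where 1.25% of all genes fell and 1.2% rose. The riser was DDX21, with a slope of 0.10 (adjusted p = 0.034). With Atractylodis, 5 fell and 0 rose, where 2.54% of all genes fell and 1.5% rose: NOC2L, RRS1, TCOF1, UBTF and WDR74. The library with 20 µg/mL of Atractylodis is the lowest dose in these slopes, and for all 5 genes it was the treated library nearest to vehicle. At an unadjusted p under 0.05 these slopes gave 5 genes for Poria and 17 for Atractylodis, in either direction, where 15.4% and 18.4% of all genes had one. With slopes over the dose in µg/mL, 0 of the 41 genes passed the edgeR test for either extract, where 0.681% of all genes passed for Poria and 0.365% for Atractylodis. An unadjusted p under 0.05 was reached by 3 genes for Poria and 14 for Atractylodis, where 16.6% and 13.5% of all genes reached it.

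The extracts were not shown to differ in their trends over these genes. The difference of the slopes passed for 0 of the 41 genes in the edgeR quasi-likelihood test, where 1.16% of all genes passed, and 5 had an unadjusted p under 0.05, where 13.1% of all genes did. DESeq2 called 1 gene, NOLC1, where it called 1.85% of all genes. The Poria slope was the higher of the pair for 35 of the 41 genes, with a median difference of 0.03. Without the Poria library at 500 µg/mL it was the higher for 20 genes and the lower for 21, with a median difference of -0.00017. That fit cannot tell whether the pattern rested on this library, because its Poria slope ends at a lower dose than its Atractylodis slope. With rising doses the library medians over the 41 genes were -0.12, -0.13 and -0.12 for Poria and -0.13, -0.17 and -0.20 for Atractylodis. The Poria medians were alike, so a Poria slope from vehicle over fewer steps is steeper. For PES1 the difference was 0.02 ± 0.03 (adjusted p = 0.89). A p that misses the threshold does not show that the extracts act alike.

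The size of the change ran along the base composition of the transcripts. The longest annotated transcript had a median GC content of 50.9% over the 41 genes, from 38.7% in UTP15 to 65.2% in BOP1, against 48.2% over all genes. Across the 41 genes, the Spearman correlation of the slope with GC content was -0.71 for Poria and -0.59 for Atractylodis, and -0.55 for the change of treated against vehicle libraries. The same correlations over all genes were -0.30, -0.30 and -0.30. Genes are not independent replicates, and all points share the same libraries. Of the 21 members with a GC content of 50% or more, a boundary chosen after seeing the data, 15 fell with Poria and 16 with Atractylodis. Of the 20 with less, 2 fell with Poria and 9 with Atractylodis. Of all genes tested, whatever their GC content, 11.6% fell with Poria and 10.5% with Atractylodis. The shares of all genes on either side of the boundary were not counted.

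Within single libraries, the deviation of all genes from vehicle had a Spearman correlation with GC content between -0.49 and -0.39 in 5 treated libraries and of -0.14 in the library with 20 µg/mL of Atractylodis. It was between -0.08 and 0.12 in the vehicle libraries. With offsets for GC content and transcript length fitted per library, 8 of the 41 genes fell and 0 rose for Poria, where 8.55% of all genes fell and 6.85% rose. For Atractylodis 22 fell and 0 rose, where 8.35% fell and 6.1% rose. In treated against vehicle libraries 20 fell and 0 rose, where 11.8% of all genes fell and 9.72% rose. BOP1, MRTO4, NOC2L, PES1, PPAN, RRP9, TCOF1 and WDR43 were the 8 for Poria. WDR43, with a GC content of 40.3%, fell in all 3 comparisons with and without the offsets, and its log2 change in treated libraries was -0.34 with them. After the offsets, the correlation with GC content over the 41 genes was -0.28 for Poria, -0.08 for Atractylodis and -0.12 for treated against vehicle. Over all genes it was 0.004, 0.002 and 0.01. The offsets are fitted to GC content, so they take out this relation by design. They would also take out an effect of the extracts that follows GC content.

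**Figure D5:**
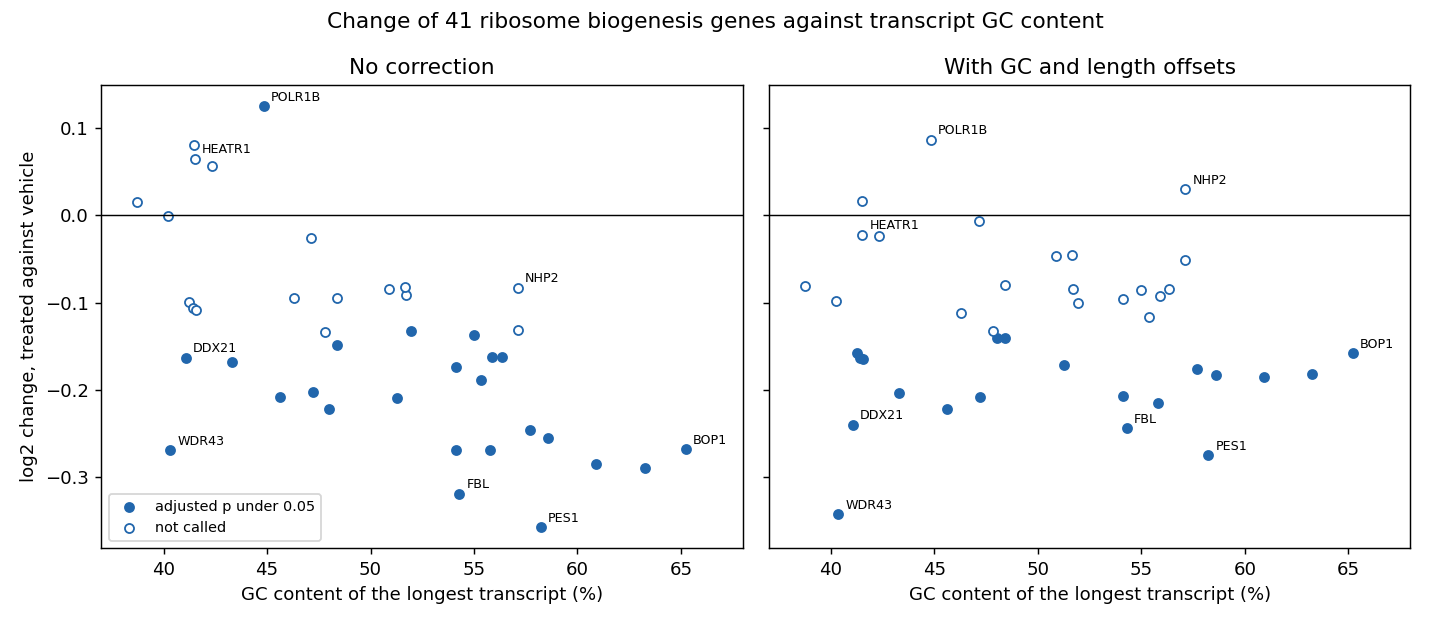
The log2 change of treated against vehicle libraries is plotted against the GC content of the longest transcript for the 41 genes, without a correction on the left and with GC and length offsets on the right. Filled points have an adjusted p under 0.05. The downward tilt on the left (Spearman correlation -0.55) is mostly gone on the right (-0.12), because the offsets are fitted to remove it. On the right 20 genes are filled below 0.

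Promoters were read for 35 of the 41 genes from a RefSeq table (assembly GRCh38.p14, 250 bases before to 50 bases after a transcription start). Those of BOP1, NOLC1, NOP58, RRP12, RRS1 and TCOF1 were not analysed here. After the values had been seen, 6 motifs were searched on both strands, where matches of different motifs may overlap. A longer palindrome around TCGCGA had been searched as well and was replaced by that core, so it is not shown. The E-box CACGTG, the element bound by MYC with MAX and by related factors, was found for 16 of 35 genes (45.7%), against 8.77% of 27305 genes with promoters of the same length. The ETS core CCGGAAG was found for 42.9% against 12.2%, CACGCG for 34.3% against 13.5%, the GC box GGGCGG for 68.6% against 48.3%, CCAAT for 42.9% against 39.7%, and TCGCGA for 14.3% against 3.76%. The 27305 genes were not limited to those that passed the filter on low counts, as all 41 did. The part of expression level or base composition in these contrasts was not tested. In all 16 genes an E-box centre lay within 50 bases of a start, against 41.7% of the genes with an E-box in general. The stretches of 30 bases below show the E-box in capitals in 5 genes that fell and in 2, GAR1 and UTP20, that passed in no comparison, each 5′ to 3′ on the strand of its gene.
PES1, chr22:30591880-30591909, minus strand: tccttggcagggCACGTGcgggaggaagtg
MRTO4, chr1:19251807-19251836, plus strand: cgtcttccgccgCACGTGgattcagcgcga
WDR43, chr2:28894658-28894687, plus strand: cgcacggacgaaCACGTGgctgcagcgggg
RRP9, chr3:51941892-51941921, minus strand: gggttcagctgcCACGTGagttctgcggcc
FBL, chr19:39846356-39846385, minus strand: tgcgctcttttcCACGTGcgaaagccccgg
GAR1, chr4:109815781-109815810, plus strand: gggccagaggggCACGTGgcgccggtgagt
UTP20, chr12:101280083-101280112, plus strand: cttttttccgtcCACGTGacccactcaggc

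The genes with and without an E-box were then set side by side. Of the 16 with an E-box, 7 fell with Poria, 9 with Atractylodis and 9 in treated against vehicle libraries. Of the 19 without, 6, 11 and 10 fell. A match is a run of letters and not a binding site.

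The other listed genes of ribosome assembly, 108 in 4 lists, were counted in the same way. For Poria 23 fell and 11 rose, for Atractylodis 35 fell and 5 rose, and in treated against vehicle libraries 35 fell and 9 rose, with median log2 values of -0.01, -0.04 and -0.07. Of all genes tested, 11.6% fell and 9.16% rose for Poria and 10.5% fell and 8.49% rose for Atractylodis. In treated against vehicle libraries 13.3% of all genes fell and 12% rose. These shares also apply to the counts of the single lists and of the MYC network below. The clearest of the 108 genes was POLR1G, the RNA polymerase I subunit that pairs with POLR1E. It was at 36.3, 35.0 and 36.8 CPM in vehicle, 29.4, 25.6 and 23.2 CPM with Poria and 29.7, 25.5 and 21.8 CPM with Atractylodis. It was lower at each higher dose of either extract, with slopes of -0.22 ± 0.02 (adjusted p = 8.8e-06) and -0.24 ± 0.02 (adjusted p = 9.7e-06), and the slope over the treated doses alone also passed for both (adjusted p = 0.013 and 0.0016). POLR1G overlaps ERCC1 and PPP1R13L on the opposite strand, and whether the counting used strand is not given in the sources used here.

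Of the 9 other RNA polymerase I genes listed, POLR1G included, 4 rose and 1 fell in treated against vehicle libraries. TAF1D, a subunit of the promoter selectivity factor SL1, was at 81.0, 81.8 and 79.3 CPM in vehicle, 84.3, 87.5 and 98.0 CPM with Poria and 82.8, 86.4 and 89.9 CPM with Atractylodis. It rose along both trends, with slopes of 0.09 ± 0.02 (adjusted p = 0.0013) and 0.05 ± 0.02 (adjusted p = 0.024). Its transcript has a GC content of 36.5%, and with GC and length offsets neither slope passed (0.05, adjusted p = 0.062, and 0.01, adjusted p = 0.7), nor did the change in treated libraries (0.02, adjusted p = 0.72). The Poria call was also lost without the Poria library at 500 µg/mL, and the Atractylodis call without vehicle library 1 or 3 or the Atractylodis library at 100 or 500 µg/mL. Among 45 other small subunit genes, 10 fell and 7 rose for Poria and 12 fell and 3 rose for Atractylodis. RRP7A had the largest change among those named there, from 62.3 ± 0.874 CPM to 51.4, 48.6 and 48.9 CPM with Poria and 55.6, 49.7 and 46.2 CPM with Atractylodis (slopes -0.13 ± 0.02 and -0.14 ± 0.02, adjusted p = 0.00051 and 0.00066). DHX37, the helicase that frees the U3 particle, and its activator UTP14A both fell along both trends, and the Poria call of UTP14A was lost without any 1 of the vehicle libraries or of the Poria libraries at 100 and 500 µg/mL.

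Among 45 other large subunit genes, 10 fell and 2 rose for Poria and 17 fell and 1 rose for Atractylodis. EIF6, which keeps the 60S subunit from joining too early, went from 226 ± 1.44 CPM to 200.5, 202 and 198 CPM with Poria and 205, 189.8 and 188 CPM with Atractylodis (slopes -0.06 ± 0.02 and -0.09 ± 0.02, adjusted p = 0.015 and 0.0023). With GC and length offsets its Poria slope was -0.01 (adjusted p = 0.65), and that call was also lost without vehicle library 2. Of 9 assembly factors of the small nucleolar particles, 2 fell for Poria and 4 for Atractylodis. RUVBL2, an ATPase that helps load the core proteins, went from 149 ± 3.86 CPM to 127, 126 and 133 CPM with Poria and 134, 122 and 116 CPM with Atractylodis (slopes -0.07 ± 0.02 and -0.11 ± 0.02, adjusted p = 0.026 and 0.0021). With GC and length offsets its Poria slope was -0.02 (adjusted p = 0.44), and that call was also lost without any 1 of the vehicle libraries or the Poria library at 100 µg/mL.

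In the MYC network, 3 of 9 genes fell and 1 rose for Poria, and 2 fell and 2 rose for Atractylodis. MYC itself was at 63.9, 61.2 and 64.7 CPM in vehicle, 61.0, 56.0 and 61.2 CPM with Poria and 62.8, 50.4 and 54.2 CPM with Atractylodis. The Poria library at 100 µg/mL and the Atractylodis libraries at 100 and 500 µg/mL lay furthest below vehicle, and the slope passed for Atractylodis (-0.09 ± 0.02, adjusted p = 0.016) and not for Poria (-0.04 ± 0.02, adjusted p = 0.33). The call was lost with library totals, without vehicle library 3 and without the Atractylodis library at 100 µg/mL. It was also lost with the dose in place of the step and with only treated doses, with or without GC and length offsets. MAX, the partner through which MYC binds DNA, was at 63.7, 62.0 and 63.9 CPM in vehicle, 53.8, 52.5 and 51.2 CPM with Poria and 54.5, 53.3 and 56.4 CPM with Atractylodis. MAX and the repressor MNT, which also pairs with MAX, both fell along the Poria trend (slopes -0.10 ± 0.02 and -0.13 ± 0.02, adjusted p = 0.0057 and 0.00077). Along the Atractylodis trend MNT fell in the edgeR test (slope -0.08 ± 0.02, adjusted p = 0.018) and MAX did not pass (adjusted p = 0.058). That MNT call was lost with library totals and with GC and length offsets, among other fits.

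The lowest count for Poria, 11 of the 41 genes (8.2% of all genes), came without its library at 100 µg/mL. The lowest for Atractylodis, 10 (3.46% of all genes), came without its library at 500 µg/mL. Without vehicle library 1, 2 or 3, 12, 12 and 13 of the 41 fell for Poria and 17, 17 and 19 for Atractylodis. Of 18267, 18303 and 18302 genes tested there, 1474, 1613 and 1570 fell for Poria and 1225, 1354 and 1269 for Atractylodis. BOP1, MRTO4, NOC2L, PES1, PPAN and RRP12 fell along both trends in every fit that left out 1 library. Of the 17 falls for Poria, 11 were kept in every such fit, and those of NHP2, NOP14, NOP2, NOP56, WDR43 and WDR74 were not. Of the 25 for Atractylodis, 8 were kept, namely BOP1, MRTO4, NCL, NOC2L, PES1, PPAN, RRP12 and WDR43. Of the 24 calls in treated against vehicle libraries 15 were kept, and those of DDX21, LAS1L, NIP7, NOP16, NPM1, POLR1B, RRS1, UBTF and WDR74 were not. The offsets for GC content and length ended the Poria calls of NHP2, NOP10, NOP14, NOP2, NOP56, RRP12, RRS1, UBTF and WDR74 and the Atractylodis calls of DKC1, LAS1L, NIP7, NOP2, NOP56 and RRP9. They added Atractylodis calls for GNL3, NOP58 and POLR1A.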

How the data were processed

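Per the submitters' processing notes and the labels' protocols, RNA with an integrity number above 7 from SW1783 cells grown with 10% serum was made into directional libraries, read from both ends over 100 bases. The notes name FastQC 0.11.9 and Trim Galore 0.6.5 for the reads, STAR 2.7.3a with hg38 for alignment and RSEM 1.3.3 for counting. The annotation release is not given in the sources used here. As deposited by the authors, the values were expected counts of RSEM by gene, and they were rounded to whole numbers before testing. Of 279 columns, 9 belong to these samples and 270 were not used here. Symbols, positions and transcript GC content came from GENCODE 29 (GRCh38), and promoters from RefSeq (GRCh38.p14). Counting can misassign reads between NPM1, RRN3 and their pseudogenes, and between genes that overlap on opposite strands, as 20 of the 41 do.

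Tests used edgeR 4.0.16 in R 4.3.3: TMM factors (0.964 to 1.03), filterByExpr by the 7 groups (count minimum 10, total minimum 15; 18356 genes kept, 42319 not), robust quasi-likelihood fits and Benjamini-Hochberg adjustment over all genes tested at 0.05. With 7 groups a gene can pass the filter through 1 library, a setting taken over from an earlier analysis. Dose trends used all 9 libraries (steps 0, 1, 2 and 3 with 6 residual degrees of freedom), and treated against vehicle 6 against 3 libraries (7 residual degrees of freedom). SE was taken as the log2 change over the square root of the F statistic. The common biological coefficient of variation was 4.97% and 5.49%. On simulated data the Poria trend fit recovered 46.5% of slopes of 0.1 and 98% of 0.25, the Atractylodis fit 45% and 98%, and treated against vehicle 0.5% of log2 changes of 0.1, 64.5% of 0.25 and 100% of 0.5. In each simulation only 200 genes were changed, all with mean counts above 200, and no shift by GC content was drawn. The real libraries differ in both respects, so these rates may not hold for them. Alternatives were DESeq2 1.42.0, its size factors, library totals, no filter, splines of GC content and transcript length as offsets, each library left out, an offset per extract, which leaves the slope to the treated doses (4 residual degrees of freedom), the dose in place of the step, and each extract with vehicle alone.

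The 41 genes and the lists were chosen with earlier results of these data known. Values in every library are given for the 3 genes of each role with the smallest p in either trend, for up to 4 genes of each other list, and for MYC. Members outside that rule (WDR12, NOC2L, HEATR1, GAR1, POLR1B, DDX21, NPM1 and others), the 6 promoter motifs (1 of them the core of a longer motif searched before it), the printed promoters and the GC boundary were chosen after their values were seen.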

Additional observations from a re-analysis of the deposited data

Results flagged for a closer look

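No group held 4 or more libraries, so the test for a library that stands apart in its group was not run. Of the 41 genes, none passed for a difference between the extracts, but 3 of the other 108 listed genes did. Among all genes tested, 1.16% passed. POLR1E, the RNA polymerase I subunit that pairs with POLR1G, was at 53.7, 56.7 and 53.8 CPM in vehicle, 55.6, 59.5 and 58.9 CPM with Poria and 51.8, 52.7 and 44.7 CPM with Atractylodis. Its Poria slope exceeded its Atractylodis slope by 0.12 ± 0.02 (edgeR quasi-likelihood test, adjusted p = 0.015). URB1, a large subunit factor, was at 121, 117 and 123 CPM in vehicle, 114, 117 and 125 CPM with Poria and 115, 109 and 101 CPM with Atractylodis, with a difference of 0.080 ± 0.02 (adjusted p = 0.048). The small subunit helicase gene DDX47 was at 58.5, 56.7 and 55.4 CPM in vehicle, 58.8, 59.6 and 67.0 CPM with Poria and 55.0, 55.9 and 53.2 CPM with Atractylodis, with a difference of 0.092 ± 0.02 (adjusted p = 0.030). The differences of POLR1E and DDX47 were lost without the Poria or the Atractylodis library at 500 µg/mL, and that of URB1 without any 1 of 7 libraries, all but the pair at 20 µg/mL. With only treated doses none of the 3 passed.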

How the results depend on the processing

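Counts of genes that passed are of the 41, in either direction. For Poria (17 genes, all falls), GC and length offsets left 8, and the dose in place of the step 0. With only treated doses 0 of the 17 falls were kept, and 1 gene, DDX21, passed as a rise. The same with GC and length offsets, an alternative chosen after seeing the data, also kept 0 of the 17. There 2 genes passed as rises, DDX21 (slope 0.10) and FBL (slope 0.09). For Atractylodis (25 genes), only treated doses left 5, the same with GC and length offsets 2, and the dose in place of the step 0. For the difference between the extracts (0 genes), library totals gave 1, DESeq2 1, no filter 2, and only treated doses with GC and length offsets 2. Leaving out each library gave 11 to 18 for Poria, with 11 without the library at 100 µg/mL, 10 to 28 for Atractylodis, with 10 without the library at 500 µg/mL, 0 to 1 for the difference, with 1 without the Poria library at 20 or 100 µg/mL, and 17 to 28 for treated against vehicle. The causes were not tested. No analysis paired by replicate was possible because the groups share only replicate number 2, which marks 1 vehicle library and every treated library. The extracts share their doses, but a test paired by dose was not run here.

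For 30 of the 41 genes and 22 other genes of the lists, 119 calls were recomputed under 1983 alternatives in all, of which 1490 kept direction and call, 468 kept direction and lost the call and 25 changed sign. With only treated doses, the Poria slope was 0.0037 for WDR43, 0.0392 for NOP14, 0.0031 for NOC2L, 0.0053 for UTP14A, 0.0024 for IMP4, 0.0181 for LYAR and 0.0321 for RUVBL2, and the Atractylodis slope was 0.0117 for NPM1 and 0.0011 for LAS1L. With GC and length offsets added, the Poria slope was 0.0024 for WDR43, 0.0439 for NOP14, 0.0045 for RRP9, 0.0054 for MRTO4, 0.0043 for PES1, 0.0075 for NOC2L, 0.0119 for UTP14A, 0.0124 for IMP4, 0.0116 for EBNA1BP2, 0.0122 for EIF6, 0.0310 for LYAR, 0.0460 for RUVBL2 and 0.0074 for SNU13, and the Atractylodis slope was 0.0082 for RRP12 and 0.0098 for LAS1L. With GC and length offsets alone, the Poria slope of NHP2 was 0.0043. Of the 119 calls, 118 were kept with DESeq2's size factors, 116 with DESeq2, 113 with no filter, 83 with GC and length offsets and 76 with library totals. Each dose of an extract rests on 1 library.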
